A study of Mus musculus with 2 samples.

Results

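A set of 10 genes of macrophages and of the CSF1 cytokine that sustains them was described in whole uterus of pregnant mice. They were the cytokines Csf1 and Csf2, the CSF1 receptor Csf1r, the macrophage genes Emr1, Cd68 and Lyz2, the scavenger receptors Mrc1 and Cd163, the endotoxin co-receptor Cd14 and the pan-leukocyte gene Ptprc. They were taken by symbol from a table of 22740 genes, and all 10 were found. Emr1 is the older symbol of Adgre1. RNA came from the whole uterus of 2 wild-type C57BL/6 mice on day 4 of pregnancy, with 1 library for each animal, called uterus 1 and uterus 2. Both belong to 1 group, and the labels name no treatment, allele or second genotype. Values are the authors' RPKM, which are reads scaled to the length of the gene and to the size of the library. The whole reads recovered from these values came to 3844447 for uterus 1 and to 4271796 for uterus 2.

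Macrophages are phagocytes that depend on signals through the tyrosine kinase receptor CSF1R, which binds CSF1 and interleukin 34. In the mouse uterus the epithelium makes CSF1 under the control of ovarian steroids, and mice without functional CSF1 have few uterine macrophages. CSF2 (GM-CSF) is a related myeloid cytokine that acts through a separate receptor and is also made by uterine epithelium. In whole tissue, fewer cells of a type and less RNA per cell cannot be told apart.

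Of the 10 genes, 8 were detected, at 1 RPKM or more in both uteri, against 58.4% of all genes in the table. Of the 10, 7 lay at 10 RPKM or more in both, against 30.4% of all genes. Macrophage identity genes were present together: of 12 macrophage markers, 11 were detected, with means from 4.09 to 70.6 RPKM, and Cd163, with a mean of 1.27 RPKM, was the one not detected in both. The summed level of the 12 was 287 (uterus 1) and 324 RPKM (uterus 2). These markers include the members Csf1r, Emr1, Cd68, Mrc1 and Cd163, so they are not a separate check of the label macrophage. The markers that are not members were all detected, although several of the genes are also used by other myeloid cells.

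Lyz2 stood 7.75-fold above the next gene, and the other detected members lay between 8.34 and 31.9 RPKM. Ordered by mean RPKM, Lyz2 was followed by Cd14, Mrc1, Csf1r, Ptprc, Emr1, Cd68, Csf1, Cd163 and Csf2. The ranges of Csf1r and Ptprc over the uteri overlapped, as did those of Ptprc and Emr1. Within each uterus Csf1r was the higher of the first pair, whereas Emr1 was above Ptprc in uterus 1 and below it in uterus 2. From Lyz2 down to Cd163 the ranges of the 2 values did not overlap at the other steps, although only 2 values stand behind each range. Cd163 and Csf2 could not be ordered at this depth, because the 3-read limit of Csf2, given below, lies above Cd163 in uterus 1. Cd14 and Mrc1 were 1.18-fold apart, and so were Mrc1 and Csf1r.

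**Figure D1:**
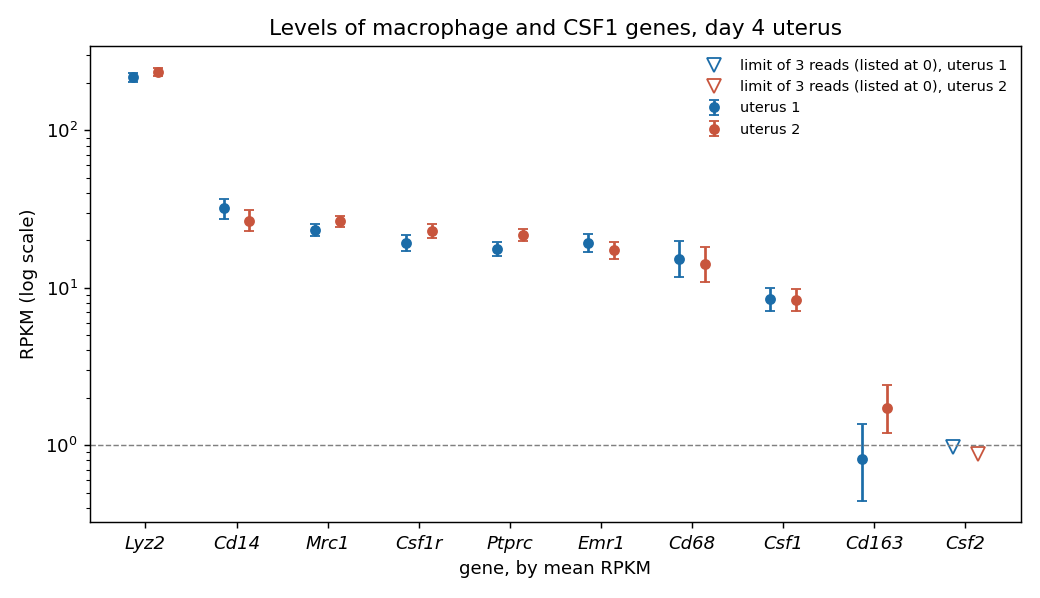
RPKM (log axis) of the 10 genes in uterus 1 (blue) and uterus 2 (red). Bars are exact Poisson 95% intervals of the recovered reads and cover counting error only, open triangles mark the RPKM of 3 reads for Csf2, which was listed at 0, and the dashed line is 1 RPKM. Lyz2 lies at 218 and 236 RPKM, 7 genes lie between 8.34 and 31.9 RPKM, and Cd163 lies at 0.813 and 1.73 RPKM.

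The ligand Csf1 (NM_001113530, chromosome 3, 107548513 to 107563387, minus strand, NCBIM37) lay at 8.49 (uterus 1) and 8.34 RPKM (uterus 2). Its mean was 8.42 ± 0.107 RPKM (SD, n = 2) on 144 and 157 reads, higher than 64.5% of genes. The 2 uteri were nearly level for this gene. Csf1 is made as secreted and membrane-bound forms, which a single value per gene does not separate.

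Csf2 (NM_009969, chromosome 11, 54060772 to 54063401) was listed at 0 in both uteri. With the annotated transcript of 800 bases, a count of 0 allows up to 3 reads, which is 0.978 (uterus 1) and 0.881 RPKM (uterus 2). Csf1 lay 8.68-fold above the 3-read limit in uterus 1 and 9.47-fold above it in uterus 2. These are lower bounds on Csf1 over Csf2 only if a listed 0 is a count, and the Poisson limits would give smaller ones. A listed 0 was not read as absence, because the ribosomal protein gene Rpl26 was listed at 0 as well. Il34, the other ligand of CSF1R, lay at 0.851 and 1.28 RPKM on 6 and 10 reads. Csf1 exceeded it 9.98-fold in uterus 1 and 6.53-fold in uterus 2. Of the known ligands of CSF1R, Csf1 was the one detected in both uteri. Csf3, which encodes the granulocyte cytokine G-CSF, lay at 1.72 and 3.79 RPKM on 9 and 22 reads.

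The receptor Csf1r (NM_001037859, chromosome 18, 61265226 to 61290793) lay at 19.4 (uterus 1) and 22.9 RPKM (uterus 2). The mean was 21.2 ± 2.50 RPKM (SD, n = 2) on 288 and 378 reads, above 84.2% of genes. Per length, receptor transcripts exceeded those of the ligand in both uteri, 2.28-fold in uterus 1 and 2.75-fold in uterus 2. The receptor genes of CSF2 were expressed although the ligand was listed at 0. Csf2ra, which encodes the ligand-specific chain, lay at 9.59 and 9.28 RPKM, and Csf2rb, the shared signalling chain, at 8.87 and 8.63 RPKM. Csf3r lay lower, at 3.16 and 3.48 RPKM.

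Emr1 (NM_010130, chromosome 17, 57498109 to 57622952) encodes the surface antigen F4/80, a common marker of mouse macrophages. It lay at 19.2 and 17.3 RPKM, a mean of 18.3 ± 1.35 RPKM (SD, n = 2), on exactly 239 reads in each library. In uterus 1 its level was 0.991 times that of Csf1r, and in uterus 2 0.755 times. With the longest coding transcript of GENCODE M1 as the length, the means turned round, at 17.4 RPKM for Csf1r and 18.3 RPKM for Emr1. Cd68 (NM_009853, chromosome 11, 69477873 to 69479564), a lysosomal membrane glycoprotein of phagocytes, lay at 15.3 and 14.2 RPKM on 59 and 61 reads. Its level was 0.788 and 0.620 times that of Csf1r. Both macrophage genes were somewhat lower in uterus 2, whereas Csf1r was higher there, and none of these differences passed the test described below.

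Lyz2 (NM_017372, chromosome 10, 116714597 to 116719328), which encodes the bactericidal enzyme lysozyme M, lay at 217.9 (uterus 1) and 235.8 RPKM (uterus 2). Its mean of 227 ± 12.7 RPKM (SD, n = 2) ranked 179 among 22740 genes. It rested on 883 and 1061 reads, and it was 11.2-fold above Csf1r in uterus 1 and 10.3-fold in uterus 2. The neighbouring copy Lyz1 (chromosome 10, NM_013590) lay at 27.6 and 28.6 RPKM, so Lyz2 exceeded it 7.89-fold and 8.25-fold. The coding sequences of both genes have 447 bases and differ at 22 of them, an identity of 95.1%, and the longest identical coding run spans 118 bases. Reads that fall inside such a run cannot be assigned to one copy, and the rule by which the authors assigned them is not given in the sources used here. The level of each lysozyme gene is therefore uncertain. Exon 2 of each gene is shown because it contains few positions that tell the copies apart. Both are read from the minus strand of chromosome 10 in NCBIM37, at 116717697 to 116717861 for Lyz2 and 116728085 to 116728249 for Lyz1, from the GENCODE M1 transcripts. Capitals mark the 6 of 165 bases that differ.
Lyz2 exon 2: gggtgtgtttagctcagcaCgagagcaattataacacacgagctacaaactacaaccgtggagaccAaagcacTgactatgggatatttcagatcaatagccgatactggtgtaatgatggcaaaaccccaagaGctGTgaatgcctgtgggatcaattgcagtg
Lyz1 exon 2: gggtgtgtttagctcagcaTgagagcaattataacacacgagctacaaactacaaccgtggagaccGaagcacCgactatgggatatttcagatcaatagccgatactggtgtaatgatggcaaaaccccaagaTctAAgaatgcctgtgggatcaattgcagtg

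Of the scavenger receptors, Mrc1 was among the higher members and Cd163 was the lowest member with reads. Mrc1 (NM_008625, chromosome 2, 14151041 to 14253650) encodes the mannose receptor CD206, an endocytic receptor of resident and alternatively activated macrophages. It lay at 23.4 and 26.4 RPKM, a mean of 24.9 ± 2.11 RPKM (SD, n = 2), on 477 and 597 reads. It followed Csf1r closely, at 1.21 times its level in uterus 1 and 1.15 times in uterus 2. Cd163 (NM_053094, chromosome 6, 124254669 to 124280545) encodes the receptor for haemoglobin-haptoglobin complexes and is another marker of resident macrophages. It lay at 0.813 (uterus 1) and 1.73 RPKM (uterus 2) on only 14 and 33 reads, above 41.6% of genes. Mrc1 exceeded Cd163 28.8-fold in uterus 1 and 15.3-fold in uterus 2. The annotated table also holds the microRNA hairpin Mir511, which lies inside the span of Mrc1 and had 1 read in each library.

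Cd14 (NM_009841, chromosome 18, 36884721 to 36886308) encodes the co-receptor that hands endotoxin to the TLR4 complex. It lay at 31.9 (uterus 1) and 26.7 RPKM (uterus 2), a mean of 29.3 ± 3.68 RPKM (SD, n = 2), on 183 and 170 reads. Relative to Csf1r it was 1.64-fold higher in uterus 1 and 1.16-fold higher in uterus 2. Ptprc (NM_011210, chromosome 1, 139959436 to 140071882) encodes CD45, the membrane phosphatase carried by all leukocytes. It lay at 17.7 and 21.6 RPKM, a mean of 19.7 ± 2.75 RPKM (SD, n = 2), on 385 and 521 reads. Csf1r and Ptprc kept nearly the same ratio in both animals, with Csf1r 1.09-fold higher in uterus 1 and 1.06-fold higher in uterus 2. Which of the 2 is higher depends on the length used, because with the longest coding transcript of GENCODE M1 the mean of Csf1r was 17.4 RPKM and that of Ptprc 19.2 RPKM.

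**Figure D2:**
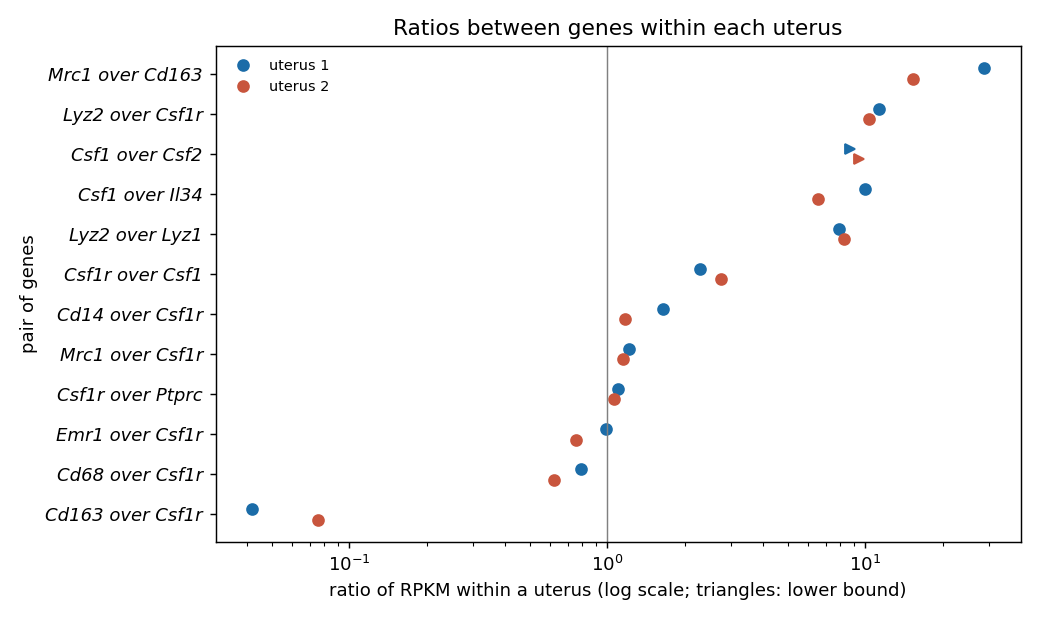
Ratios of RPKM between pairs of genes within uterus 1 (blue) and uterus 2 (red), on a log axis, with the line at equal levels. Triangles are lower bounds against the 3-read limit of Csf2. Mrc1 over Cd163 is highest, at 28.8 and 15.3, and Csf1r over Ptprc lies at 1.09 and 1.06.

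The comparison of uterus 2 with uterus 1 asked how far the levels of these genes differed between the animals. Reads of each gene were compared by a two-sided exact binomial test with Benjamini-Hochberg adjustment over 15118 genes, which compares these 2 libraries and not conditions. None of the 9 members with reads was called, against 4.92% of all genes tested. In that exact test 3 had an unadjusted p under 0.05, against 15.9% of all genes, and they were Ptprc, Cd163 and Csf1r. All 3 were higher in uterus 2. A single member, Cd163, was at least 1.5-fold apart, against 8.35% of the 13647 genes whose mean reached 1 RPKM. It was higher in uterus 2, as were 4.1% of those genes, and 0 members were apart in the other direction, against 4.26%. Of the 9 members, 5 had a log2 ratio above 0, against 50.1% of those genes.

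Cd163 was 2.12-fold higher in uterus 2, with a counting interval from 1.11 to 4.29, and its adjusted p in the exact binomial test was 0.186. Its 14 and 33 reads leave a wide range, and across all genes between 1 and 10 RPKM the SD of log2 ratios was 0.58. Ptprc was 1.22-fold higher in uterus 2 (interval 1.07 to 1.39), with an adjusted p of 0.063 in the exact binomial test. Csf1r was 1.18-fold higher (1.01 to 1.38), Mrc1 1.13-fold (0.998 to 1.27) and Lyz2 1.08-fold (0.989 to 1.18). In the other direction, Cd14 stood at 0.837 times its level in uterus 1 (0.675 to 1.04), Emr1 at 0.901 times (0.750 to 1.08) and Cd68 at 0.931 times (0.640 to 1.36). Csf1 was the closest to level, at 0.982 times (0.778 to 1.24). These intervals cover counting error alone, and with 1 library per animal they say nothing of the spread among animals. Apart from Cd163, each member above 0 stayed under 1.5-fold.

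**Figure D3:**
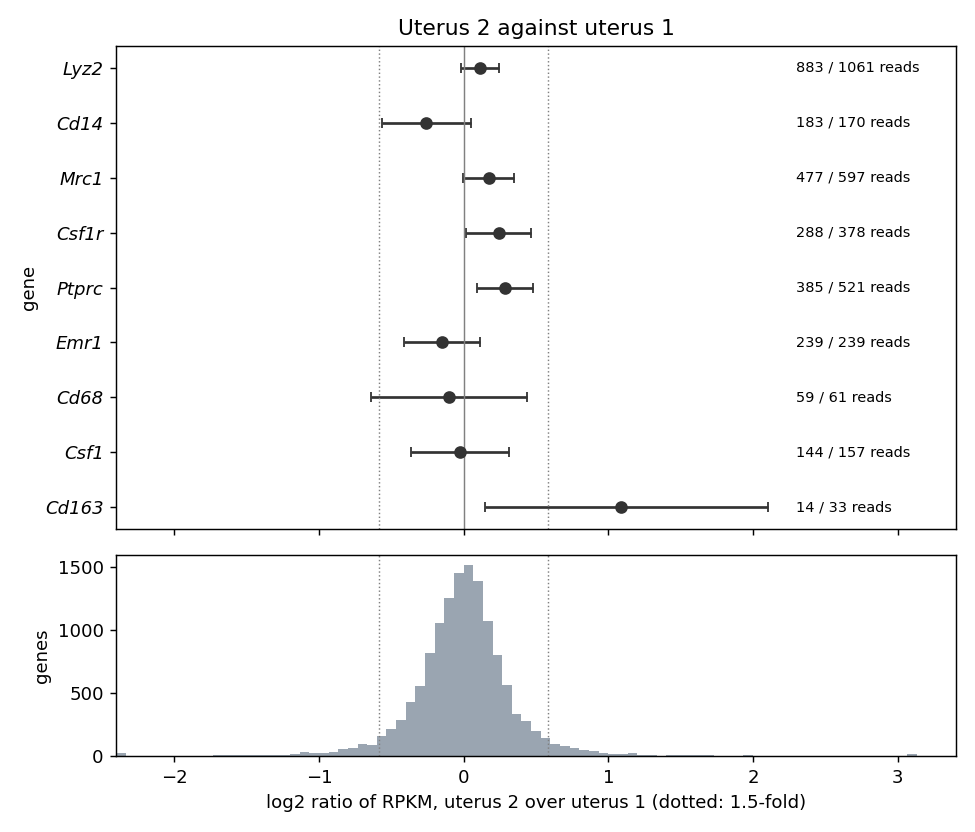
Upper panel, log2 ratio of RPKM in uterus 2 over uterus 1 for the 9 members with reads, with 95% counting intervals and the reads of uterus 1 and uterus 2 at the right. The lower panel is a histogram of the same ratio, after a pseudocount of 0.1 RPKM, for 13647 genes whose mean reached 1 RPKM, with values beyond the range gathered in the end bins. Cd163 is the member outside the dotted lines at 1.5-fold.

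Around these members, further genes of the pathway were described from fixed lists. A list's medians in the 2 uteri can fall on different genes, so they describe levels, and the difference between uteri is given by the median log2 ratio of the genes whose mean reached 1 RPKM. Over all such lists, 145 genes were found and 119 were detected, against 58.4% of all genes. Of the 124 whose mean reached 1 RPKM, 81 had a log2 ratio above 0, against 50.1% of all such genes. Their median log2 ratio was 0.10, against 0.00067 over all genes. At least 1.5-fold apart were 13 higher in uterus 2, against 4.1% of all such genes, and 5 higher in uterus 1, against 4.26%. The exact binomial test called 8 higher in uterus 2, against 2.26% of all genes tested, and 3 higher in uterus 1, against 2.67%, out of 130 tested. Lists of stromal, epithelial and smooth muscle genes held calls in both directions, and the endothelial list in 1 direction. Of 7 stromal genes, Dcn and Vim were called higher in uterus 2, at 456 and 578 RPKM and at 447 and 522 RPKM, whereas Col1a1, at 1184 and 851 RPKM, and Col1a2 were called lower. Of 6 epithelial genes, Krt18 was called higher, at 70.4 and 94.3 RPKM, and Cldn4 lower. The call of Krt18 was lost with its smallest possible reads, 189 and 281 (adjusted p 0.05001, exact binomial test). Among 6 smooth muscle genes, Myh11 was called higher and Acta2 lower. Of 7 endothelial genes, Kdr and Vwf were called lower, at 22.9 and 16.6 RPKM and at 13.1 and 9.57 RPKM, while Pecam1 lay at 50.7 and 50.9 RPKM and 3 of the 7 had a log2 ratio above 0. The summed level in uterus 1 and uterus 2 was 5149 and 4927 RPKM for stroma, 255 and 284 RPKM for epithelium, 2025 and 2017 RPKM for smooth muscle and 206 and 195 RPKM for endothelium. The part of these cells in the differences of the pathway genes was not tested.

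In the macrophage core list all 22 genes were detected, with a median of 9.42 (uterus 1) and 11.6 RPKM (uterus 2) and a median log2 ratio of 0.19. The complement genes C1qa, C1qb and C1qc, which macrophages make in abundance, lay at 70.6 ± 13.5, 66.8 ± 7.92 and 53.2 ± 1.10 RPKM (SD, n = 2). Ctss, the lysosomal cysteine protease cathepsin S, was higher in uterus 2, at 49.0 and 70.6 RPKM on 255 and 408 reads, with an adjusted p of 0.00030 in the exact binomial test. C1qa was also higher in uterus 2 (adjusted p 0.023, exact binomial test), whereas C1qc lay at 53.9 and 52.4 RPKM. These 2 were the calls of the list, against 4.92% of all genes tested, and 15 of its 22 genes had a log2 ratio above 0, against 50.1%. Fcgr3, an activating Fc receptor, lay at 7.90 and 12.3 RPKM on 41 and 71 reads and was not called. In the other direction Ms4a7, a membrane protein gene of macrophages, lay at 7.90 and 5.07 RPKM on 52 and 37 reads and was not called either. These were the 2 genes of the 22 at least 1.5-fold apart, a share near the 8.35% of all genes.

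Genes of resident macrophages had a median of 5.77 (uterus 1) and 7.17 RPKM (uterus 2), with 14 of 15 detected and a median log2 ratio of 0.17. Of 14 genes whose mean reached 1 RPKM, 2 were at least 1.5-fold higher in uterus 2, against 4.1% of all such genes. In the other direction there was 1, against 4.26%. Ccl8 and Mgl2, a lectin gene at 4.04 and 6.67 RPKM, were the 2 higher in uterus 2. Pf4, a platelet chemokine at 5.77 and 1.998 RPKM on 13 and 5 reads, was higher in uterus 1. Mgl2 and Pf4 were not called, and the 2 calls among 14 genes tested stand against 4.92% of all genes tested. Cbr2, a carbonyl reductase used as a marker of resident macrophages, was higher in uterus 2, at 102.4 and 138.1 RPKM (adjusted p 0.00027, exact binomial test). Ccl8, a monocyte-attracting chemokine, was higher in uterus 2, at 37.3 and 66.2 RPKM on 73 and 144 reads (adjusted p 0.0026, exact binomial test). Igf1 at 104 ± 5.43 RPKM and Gas6 at 78.9 ± 1.78 RPKM (SD, n = 2) were also high in the list, and both are made by stromal cells too. Lyve1 lay at 8.10 and 7.30 RPKM, Folr2 at 5.07 and 7.17 RPKM, and Timd4, a phosphatidylserine receptor, at 0.120 and 0.324 RPKM on 1 and 3 reads.

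Activation genes were low. The inflammatory list had a median of 0.460 (uterus 1) and 0.707 RPKM (uterus 2), with 4 of 15 genes detected and Il12b listed at 0. Its median log2 ratio was 0.44 over only 5 genes. Of these, 1 was at least 1.5-fold higher in uterus 2, against 4.1% of all such genes, and 1 in uterus 1, against 4.26%. None of the 10 genes tested was called, against 4.92% of all genes tested. Il1b lay at 1.38 and 1.95 RPKM and Tnf at 0.322 and 0.581 RPKM, each on 11 reads or fewer. The alternative activation list had a median of 0.762 and 0.703 RPKM, with 5 of 12 detected and a median log2 ratio of 0.04 over those whose mean reached 1 RPKM. Arg1, the arginase of alternatively activated macrophages, lay at 1.24 and 1.27 RPKM, and Il10 and Ccl24 were listed at 0. Its high genes Fn1, Tgm2 and Il4ra, at 219.5, 176 and 24.3 RPKM, are used widely outside macrophages, and Fn1 was lower in uterus 2 by the exact binomial test (adjusted p 2.0e-15). Mrc1 thus lay at 24.9 RPKM beside an alternative activation list most of whose genes were not detected.

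Of the 18 genes that signal with or beside CSF1R, 17 were detected, with medians of 7.13 and 8.61 RPKM and a median log2 ratio of 0.20. Tyrobp, the adaptor DAP12, was highest at 50.9 ± 0.263 RPKM (SD, n = 2). Plcg2, a phospholipase, was the single call among 18 genes tested, against 4.92% of all genes tested. It lay at 5.22 and 7.98 RPKM (adjusted p 0.042, exact binomial test). With the smallest reads that its values allow, 43 and 73, its adjusted p in the exact binomial test was 0.28 and the call was lost. Myeloid transcription factor genes had medians of 5.67 and 6.12 RPKM and a median log2 ratio of 0.08, with 12 of 15 detected. None of the 14 tested was called, against 4.92% of all genes tested. Maf was highest at 43.7 ± 0.182 RPKM (SD, n = 2). Irf8 lay at 12.0 and 12.7 RPKM. In the list of CSF family ligands and receptors, 7 of 8 were detected and none was called.

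Beside Cd14, all 13 genes of the endotoxin receptor complex and its adaptors were detected, with medians of 7.35 and 8.01 RPKM, a median log2 ratio of 0.08 and no call. Myd88, the main adaptor, lay at 83.5 ± 7.88 RPKM (SD, n = 2), Lbp, which carries endotoxin to CD14, at 45.3 ± 4.06 RPKM, and Tlr4 at 12.3 and 11.0 RPKM. In the monocyte list, 7 of 9 were detected, with medians of 3.29 and 4.93 RPKM and a median log2 ratio of 0.29. Of 8 genes tested, 1 was called higher in uterus 2, against 2.26% of all genes tested, and 1 lower, against 2.67%. Ccr2, the receptor that draws monocytes out of the blood, was higher in uterus 2, at 19.3 and 25.0 RPKM (adjusted p 0.027, exact binomial test). Ly6c2, a marker of classical monocytes, lay at 2.60 and 5.87 RPKM on 8 and 20 reads, also more in uterus 2, and was not called. Plac8 was the highest of that list at 353 ± 46.2 RPKM (SD, n = 2) and is expressed outside monocytes too. It was called lower in uterus 2 (adjusted p 0.0018, exact binomial test), and with its smallest possible reads, 515 and 475, its adjusted p in that exact binomial test was 0.074 and the call was lost. Of 10 monocyte chemokine and receptor genes, 8 were detected, with medians of 2.62 and 4.26 RPKM and a median log2 ratio of 0.19. Ccl2 lay at 1.62 and 2.04 RPKM on 5 and 7 reads. Lysosome and phagocytosis genes had medians of 59.6 and 53.1 RPKM and a median log2 ratio of 0.05, with 7 of 12 genes above 0. They were led by Ctsd at 1321 ± 89.8 RPKM (SD, n = 2). Ctsd and Ctsb were called higher in uterus 2 and Cd63 lower, and these genes are expressed in most cells.

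Lists of other leukocyte markers had lower medians than the macrophage core list. The contrast is smaller against the resident macrophage list, whose medians of 5.77 and 7.17 RPKM lay close to those of mast cells. Median levels in uterus 1 and uterus 2 were 1.87 and 2.51 RPKM for dendritic cells (8 of 9 detected), 0.534 and 1.20 RPKM for neutrophils (5 of 11) and 0.366 and 0.415 RPKM for eosinophils (2 of 8). They were 5.03 and 6.63 RPKM for mast cells (5 of 7), 1.51 and 1.99 RPKM for NK cells (6 of 8), 0.660 and 0.733 RPKM for T cells (2 of 8) and 0.653 and 1.20 RPKM for B cells (2 of 7). The neutrophil granule genes Elane, Camp and Ngp and the eosinophil genes Prg3 and Ear1 were listed at 0. Ltf, high at 48.9 and 62.9 RPKM, is also made by uterine epithelium. Of the B cell genes, the 4 whose mean reached 1 RPKM all had a log2 ratio above 0, on few reads and with no call. The summed B cell level was 5.38 (uterus 1) and 10.5 RPKM (uterus 2), and its part in the ratio of Ptprc was not tested. For scale, stromal genes had medians of 456 and 578 RPKM, smooth muscle genes 299 and 315 RPKM, epithelial genes 38.8 and 40.7 RPKM and endothelial genes 22.9 and 17.5 RPKM. The median log2 ratios were 0.49 for neutrophil genes (6 genes), 0.11 for eosinophil genes (2 genes), 0.86 for B cell genes (4 genes), 0.50 for NK cell genes (7 genes), 0.39 for mast cell genes (5 genes), 0.08 for dendritic cell genes (8 genes) and -0.31 for T cell genes (3 genes). They were 0.09 for stromal, 0.05 for epithelial, 0.02 for smooth muscle and -0.0044 for endothelial genes.

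**Figure D4:**
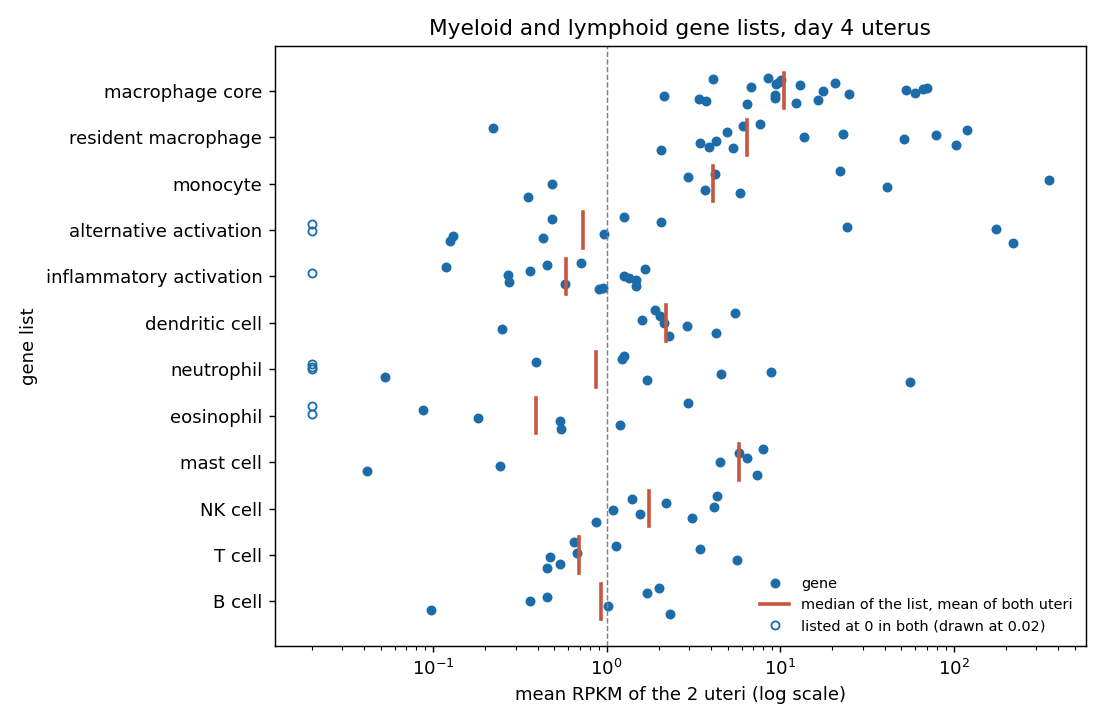
Mean RPKM over both uteri (log axis) of each gene in 12 lists of macrophage, activation and other leukocyte genes. Points are genes, open circles mark genes listed at 0 in both uteri and drawn at 0.02, red bars are list medians, and the dashed line is 1 RPKM. The macrophage core list lies around 10.5 RPKM with all 22 genes above 1 RPKM, whereas the median of the inflammatory activation list is 0.583 RPKM.

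Promoter sequences of 7 of the 10 members were searched, from the RefSeq table (GRCm38.p6). Those of Csf1r, Cd14 and Emr1 were not searched. The window searched was the 250 bases before each transcription start, and the motif was GGAAGT or its reverse complement ACTTCC, a core bound by ETS-family factors, which include regulators of myeloid genes. Both strands were searched. Of the 7 members, 3 (Lyz2, Mrc1 and Ptprc) had it in at least 1 window. By windows it was in 4 of 8, but the 2 windows of Ptprc overlap and share 1 copy of the motif, so they are not separate cases. Of all 32851 windows of this length, 19.7% held it. Csf1, Csf2, Cd68 and Cd163 had none in theirs. A match is a description of letters and not a binding site. A window with a match is shown for each of Lyz2, Mrc1 and Ptprc, beside that of Lyz1, because they compare the most abundant member with its copy and with the macrophage and leukocyte receptors. Capitals mark the motif.
Lyz2 upstream (minus strand, chr10:117282273-117282522): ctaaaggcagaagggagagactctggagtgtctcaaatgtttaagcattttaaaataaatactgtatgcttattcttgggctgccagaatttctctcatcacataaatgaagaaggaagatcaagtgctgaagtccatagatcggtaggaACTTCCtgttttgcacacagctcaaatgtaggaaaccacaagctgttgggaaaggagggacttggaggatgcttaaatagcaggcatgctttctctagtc
Lyz1 upstream (minus strand, chr10:117292869-117293118): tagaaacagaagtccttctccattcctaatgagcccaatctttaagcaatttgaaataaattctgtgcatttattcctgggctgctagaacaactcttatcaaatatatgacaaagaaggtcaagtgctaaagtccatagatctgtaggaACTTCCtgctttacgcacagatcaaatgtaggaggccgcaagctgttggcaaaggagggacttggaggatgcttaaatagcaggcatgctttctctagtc
Mrc1 upstream (plus strand, chr2:14229164-14229413): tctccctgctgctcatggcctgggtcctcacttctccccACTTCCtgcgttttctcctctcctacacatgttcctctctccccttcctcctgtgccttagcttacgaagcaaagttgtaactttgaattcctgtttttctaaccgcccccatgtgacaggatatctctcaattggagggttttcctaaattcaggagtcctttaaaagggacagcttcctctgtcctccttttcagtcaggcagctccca
Ptprc upstream (minus strand, chr1:138175306-138175555): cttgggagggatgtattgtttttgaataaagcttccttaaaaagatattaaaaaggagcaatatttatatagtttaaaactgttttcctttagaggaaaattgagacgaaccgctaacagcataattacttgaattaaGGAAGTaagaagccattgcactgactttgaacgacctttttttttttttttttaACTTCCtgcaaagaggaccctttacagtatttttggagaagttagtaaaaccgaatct

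The windows of Lyz2 and Lyz1 were alike near the start. Their last 50 bases were identical, 60.8% of the 250 positions matched without gaps, and in both the motif began 100 bases before the start. The 2 copies nevertheless differed in level in these uteri, 7.89-fold in uterus 1 and 8.25-fold in uterus 2, as far as their reads could be assigned. In Mrc1 the motif began 211 bases before the start. In the Ptprc window shown it occurred at 112 and 58 bases before the start, and another Ptprc start, whose window overlaps the first, has the nearer copy of the motif 237 bases before it.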

How the data were processed

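Whole-uterus RNA of 2 mice, collected at day 4 of pregnancy, was sequenced as 1 library per animal after TRIzol extraction and TruSeq preparation, per the labels' protocols, with poly-A selection and HiSeq2500 sequencing per the series' design text. The deposited values are RPKM computed by the authors, and TopHat, edgeR and the build mm9 are named in the submitters' processing notes. Counting, annotation and strand use are not given in the sources used here. No header names a build. Deposited starts were read as counted from 0 on NCBIM37 (mm9), because 12380 of 21203 genes matched a GENCODE M1 start 1 base later, and coordinates are printed counted from 1.

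The main table of 22740 genes was used. The annotated table holds the same values and 626 further rows of microRNAs. Whole reads were recovered from the RPKM steps, since reads over length are whole-number fractions once the scaling totals (3834174 and 4256101) are known. Of 17646 rows above 0, 99.8% gave such a fraction within a relative tolerance of 1e-09, and 34 did not. A factor common to both libraries was chosen by annotated length (scale 0.05 in the natural log of the length), and 980 rows without one took the smallest reads. For each member the chosen reads were also the smallest possible. Precision rests on each gene's reads, and intervals describe counting error alone. They treat each read as a separate molecule, so reads copied by PCR would make them too narrow.

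Log2 ratios used 0.1 RPKM as pseudocount and genes whose mean reached 1 RPKM, a scale that understates changes of low genes. Genes were called apart at 1.5-fold. The exact binomial test (scipy 1.17.1, two-sided) took genes with at least 6 reads in sum, and calls had a Benjamini-Hochberg adjusted p under 0.05. The read recovery and the exact test were tested on simulated data. With 1 group there is no test between conditions. Named genes were all members and, without naming every one, the 3 highest, lowest and called genes of each list, list genes that were 1.5-fold apart and averaged 10 RPKM or more, and genes of fixed ratios. The ratio of Lyz2 over Lyz1 was added after seeing the data, and Arg1, C1qc, Ccl2, Csf3, Csf3r, Folr2, Ly6c2, Lyve1, Mgl2, Ms4a7, Pf4, Tlr4 and Tnf were named after their values were seen. The members and lists were chosen with earlier results of these data known. With 2 libraries, likeness of pattern between genes was not measured. Listed genes not in the table were not analysed here. Alternatives are given in the closing section.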

Additional observations from a re-analysis of the deposited data

How the results depend on the processing

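Rescaling both libraries to an equal sum (the TPM scale) changes the unit, and so every level by construction. Mean levels became 19.9 (Csf1), 50.04 (Csf1r), 43.2 (Emr1), 34.9 (Cd68), 536.7 (Lyz2), 58.9 (Mrc1), 3.001 (Cd163), 69.3 (Cd14) and 46.5 (Ptprc). With the longest coding transcript of GENCODE M1 as the length, chosen after seeing the data, levels were 8.91 RPKM (Csf1), 17.4 RPKM (Csf1r), 12.1 RPKM (Cd68) and 182.6 RPKM (Lyz2), which puts Csf1r below Ptprc (19.2 RPKM) and Emr1 (18.3 RPKM) and so turns the order of their means. The count of members detected was 9 at 0.5 RPKM and 8 at thresholds of 2 and 5 RPKM. With only list genes above 0 in both libraries, the median rose from 0.732 to 1.25 RPKM for alternative activation. It rose from 0.583 to 0.781 RPKM for inflammatory, 0.867 to 1.71 RPKM for neutrophil and 0.390 to 0.886 RPKM for eosinophil genes. For B cell genes it rose from 0.926 to 1.36 RPKM, and for lysosome and phagocytosis genes from 56.3 to 74.0 RPKM. Genes at least 1.5-fold apart numbered 1140 at a mean of 1 RPKM, 3433 without a filter, 325 at 5 RPKM and 148 at 10 RPKM, since each filter sets how many low genes are counted. At 2-fold there were 355. Cd163 lies under the filters at 5 and 10 RPKM, which left 0 members apart. The exact test called 0 members under each alternative run. The direction count of pathway genes, 81 of 124, became 34 of 50 at a mean of 10 RPKM, where fewer genes are counted. Calls among pathway genes went from 11 to 9 with the smallest possible reads, where Plcg2 and Plac8 were lost, as were Ltf among neutrophil genes and Krt18 among epithelial genes (adjusted p 0.051 and 0.05001, exact binomial test). Log2 ratios of members kept their sign under other pseudocounts and scalings, and that of Cd163 was 0.59 with a pseudocount of 1 RPKM. Leaving out either library moves a mean of 2 values by under 1 SD by construction, so it says nothing of stability. No paired analysis was possible because the series holds a single group.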
